A study of Mus musculus with 9 samples.

Results

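Astrocyte genes were followed through 3 regions of the mouse brainstem as a set of 36 names, chosen as known markers of astrocytes and matched by the gene name that the array gives each probe, in capitals there (GFAP, AQP4, SLC1A2 and so on) and written here as the mouse symbol. Of these names, 35 had at least 1 probe, which gave 57 of the 45281 probes on the array. Clu had no probe under that name and was not analysed here. The donors were male mice, 8 weeks old, with Chat-Cre, in which the gene of the acetylcholine-making enzyme drives Cre recombinase, together with Ai9, a reporter allele that makes a red fluorescent protein where Cre has acted. Both alleles were shared by all 9 samples, and no treatment was given in the labels. Total RNA of brainstem tissue labelled dorsal, target or ventral was hybridised to Illumina mouse arrays, with 3 arrays per region. Nothing in the labels says that cells were sorted, and the sources used here do not give the limits of the regions. Each region was measured in the same 3 mice, since a given array number stands for 1 mouse throughout.

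Astrocytes are glial cells that clear glutamate and potassium released by neurons, supply neurons with metabolites, and line blood vessels with end feet rich in water channels. They are joined to each other through gap junctions, and they secrete lipoproteins and proteins that act on synapses. The genes measured here cover those roles. Several of them are also used by other cells of the brain, such as Vim in vessel and ependymal cells, Cst3 and Apoe in microglia and Glul in oligodendrocytes.

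Between 16703 and 19945 probes were above background on an array, and the correlation of 2 arrays over the 20461 tested probes lay between 0.892 and 0.961. A probe was tested if it was above background, at a detection p below 0.05, on at least 3 of the 9 arrays. Levels are log2 values after background correction and quantile normalization, and a difference is the first region's mean minus the second's on that scale. Levels are compared between regions for the same probe only, since probes differ in brightness. With 3 arrays per region, their number limits the precision. In tissue RNA, fewer astrocytes and less RNA per astrocyte cannot be told apart.

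Most of the astrocyte genes were detected in all 3 regions, and most of their differences between regions were under 0.5 in log2 size. Of the 57 probes, 32 were above background on all 9 arrays, 10 on 3 to 8 arrays, 4 on 1 or 2 arrays and 11 on none. The 42 probes that passed the filter stood for 31 gene names, and what follows on differences applies to those 42. Each of the 7 defining markers, Gfap, Aqp4, Aldh1l1, S100b, Slc1a2, Slc1a3 and Sox9, had a probe above background on all 9 arrays, so the label of the set held in each region. Only Slc1a2, which encodes the main glutamate transporter of astrocytes, passed the test between any regions, with 1 of its probes.

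In target against dorsal, 0 of the 42 probes passed the limma test after Benjamini-Hochberg adjustment over all tested probes, where 0.0586% of all probes did. At an unadjusted p below 0.05, 2 member probes passed, those of F3 and Pla2g7, against 9.60% of all probes. In target against ventral, 1 member probe passed, lower in target, where 1.78% of all probes did and 0.616% were lower in target. In dorsal against ventral, 1 member probe passed, lower in dorsal, where 7.98% of all probes did and 3.92% were lower in dorsal. The arrays of the 2 regions did not overlap for 7, 8 and 12 of the 42 probes in these 3 pairs, against 17.5%, 21.1% and 26.7% of all probes. With 42 probes, the members' counts were near or below the share for the whole array in each pair of regions.

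The median difference of the 42 probes was -0.05 for target minus dorsal, -0.08 for target minus ventral and 0.06 for dorsal minus ventral, where the medians over all tested probes were -0.02, 0.02 and 0.04. Differences under 0.5 in size were found for 38, 36 and 31 member probes in these pairs, against 81.5%, 75.2% and 68.8% of all tested probes. The 95% interval of the difference lay within 1 log2 unit of 0 for 32, 29 and 29 member probes, or 76.2%, 69% and 69%, against 61.5%, 56.7% and 51.8% of all probes. Most members were thus bounded to within 1 log2 unit between regions, and smaller differences were not resolved. The members were also steady between mice, with a median within-region SD of 0.20 against 0.35 over all tested probes, and of 0.16 against 0.27 among probes above background on all 9 arrays. Members and all probes were not matched for level, and the part of probe brightness in this was not tested.

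**Figure D1:**
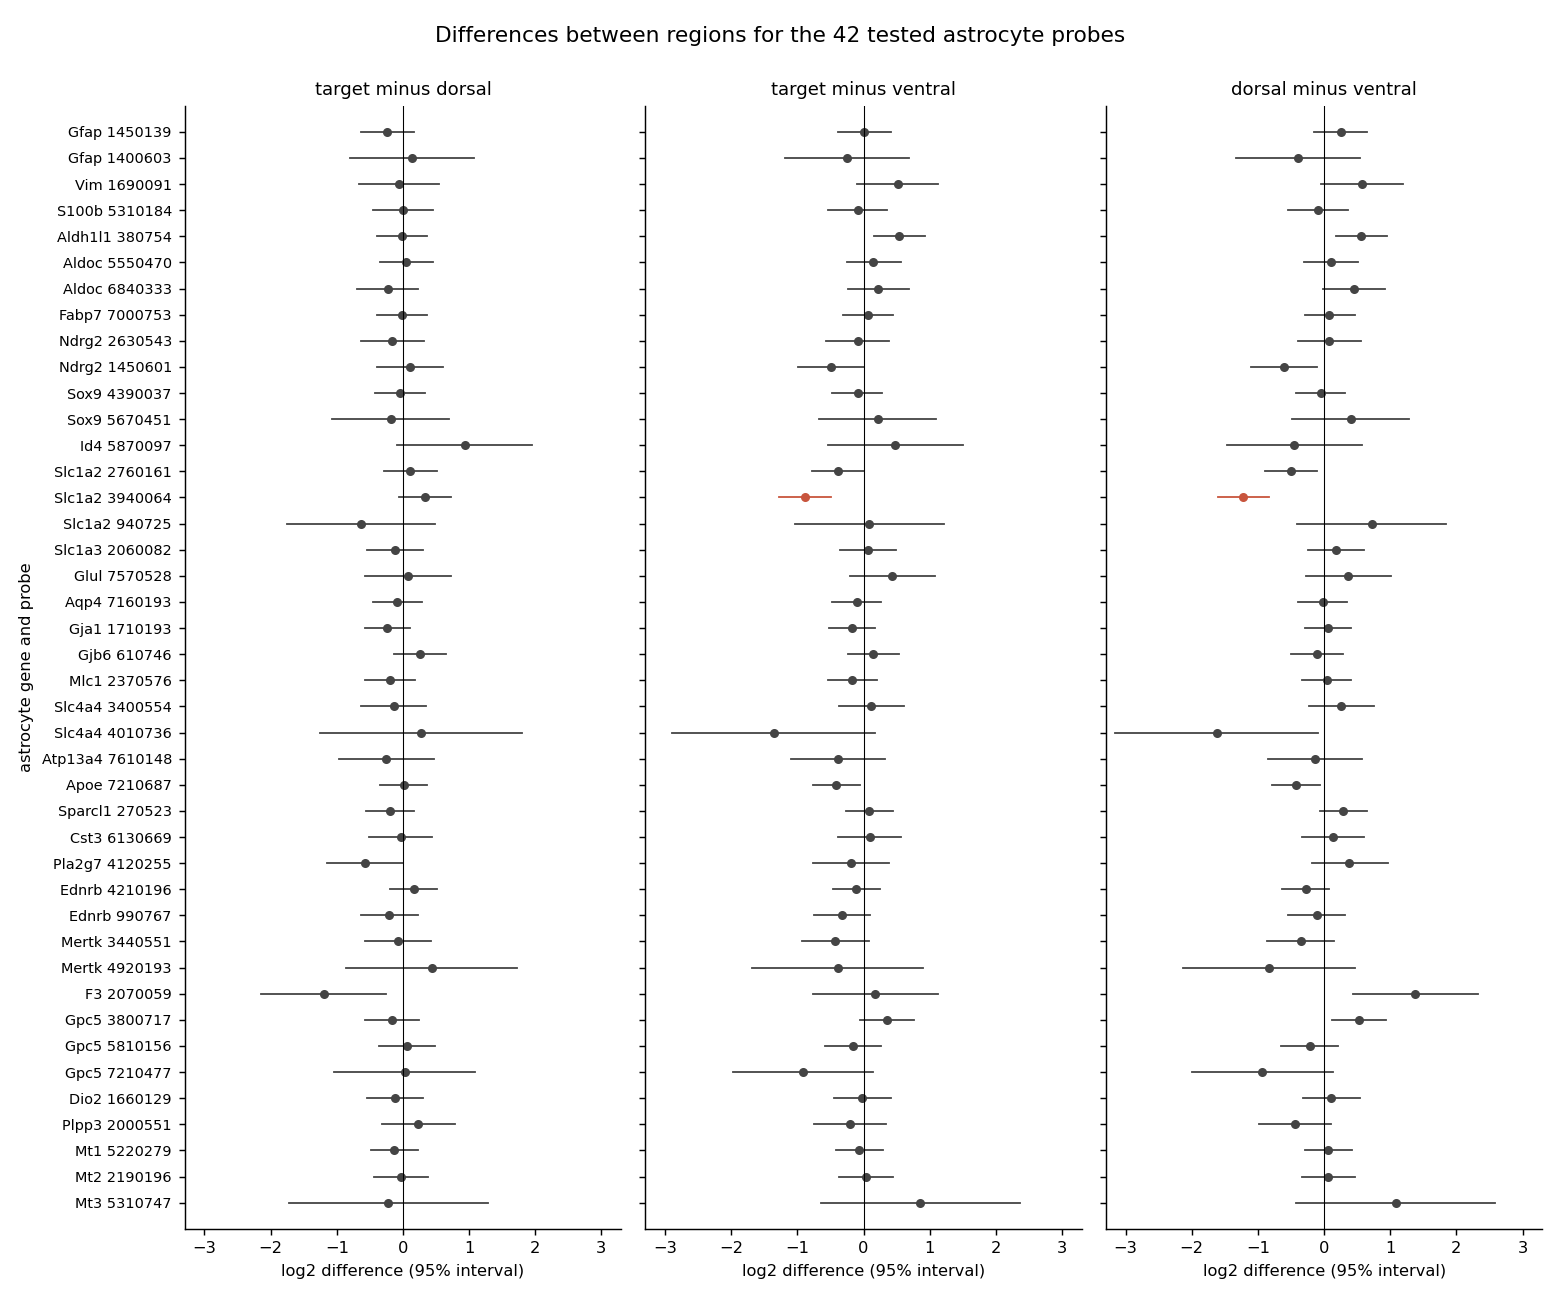
Log2 difference (point) and its 95% interval (line) for each of the 42 tested astrocyte probes, in 3 panels for target minus dorsal, target minus ventral and dorsal minus ventral. Probes that passed the test are red: the Slc1a2 probe 3940064 lies at -0.89 in the middle panel and at -1.22 in the right panel, and no other interval is red.

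Slc1a2 takes up most of the glutamate released at synapses of the forebrain, while Slc1a3 is the main transporter of cerebellar astrocytes. Its promoter is shown because Slc1a2 is the only member called. The window runs from 250 bases before the start of the gene to 50 bases from the start on, at chr2:102706188-102706487 on the + strand of mouse GRCm38.p6, from RefSeq, and capitals mark the 50 bases from the start on.
Slc1a2: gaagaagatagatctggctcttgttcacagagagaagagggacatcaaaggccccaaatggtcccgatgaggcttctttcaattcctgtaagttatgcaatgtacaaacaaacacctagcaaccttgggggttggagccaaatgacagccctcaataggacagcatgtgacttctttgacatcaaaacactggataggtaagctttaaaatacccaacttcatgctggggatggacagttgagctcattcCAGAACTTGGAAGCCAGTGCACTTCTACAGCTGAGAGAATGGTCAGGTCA
The arrays measured RNA and not this promoter, and nothing about its activity was measured.

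The called Slc1a2 probe (3940064) read 10.19, 10.09 and 10.09 in dorsal (mice 1, 2 and 3), 10.70, 10.34 and 10.35 in target, and 11.19, 11.44 and 11.40 in ventral. The 3 regions did not overlap, with ventral highest and dorsal lowest in every mouse. Means were 10.12 ± 0.06 (SD, n = 3) in dorsal, 10.46 ± 0.20 in target and 11.34 ± 0.13 in ventral. The dorsal level was lower than the ventral level by a log2 difference of -1.22 (SE 0.17, 95% interval -1.61 to -0.83), a fold of 2.33, with an adjusted p of 0.00367 in limma's test. The target level was lower than the ventral level by a difference of -0.89 (SE 0.17, 95% interval -1.28 to -0.49), a fold of 1.85, with an adjusted p of 0.0412. Both differences had the same sign in all 3 mice, from -1.35 to -1.0 for dorsal minus ventral and from -1.11 to -0.50 for target minus ventral. Target minus dorsal was 0.34 (95% interval -0.06 to 0.73), which did not pass (adjusted p = 0.582).

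The target minus ventral call was near the limit. In the fit with mouse as a block, where 0.753% of all probes passed in this pair, its adjusted p was 0.0862, and without any 1 of the 9 arrays it lay between 0.0581 (without dorsal array 1) and 0.153 (without target array 3). The dorsal minus ventral call stood in the blocked fit (adjusted p = 0.0144, where 6.58% of all probes passed).

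The other Slc1a2 probes did not repeat the size of this difference. The second bright probe (2760161) read 10.96, 10.66 and 10.73 in dorsal, 11.0, 10.99 and 10.70 in target, and 11.30, 11.37 and 11.17 in ventral. It too had its ventral arrays above all others, at a smaller distance: dorsal minus ventral was -0.50 (SE 0.17, 95% interval -0.89 to -0.11, adjusted p = 0.128) and target minus ventral -0.38 (SE 0.17, adjusted p = 0.323), and neither passed. Without background correction its dorsal minus ventral difference was -0.46 and passed (adjusted p = 0.0353), and it had the same value and adjusted p in the authors' quantile table. The dim probe (940725) read 7.39, 7.41 and 7.21 in dorsal, 6.76, 6.62 and 6.74 in target, and 7.66, 6.98 and 5.23 in ventral, where the last array was not above background. Its dorsal minus ventral difference was 0.72 (SE 0.50, adjusted p = 0.457), opposite in sign to that of the bright probes and not resolved from 0. Averaged over its 3 tested probes, Slc1a2 differed by -0.33 between dorsal and ventral (adjusted p = 0.418) and by -0.40 between target and ventral (adjusted p = 0.439), and neither passed. The dim probe counts as much as each bright one in these means. The fourth probe (6960746) was above background on no array. Where on the Slc1a2 transcripts each probe lies was not examined here.

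Some markers of other cells also passed between dorsal and ventral, where 7.98% of all probes did. Among the 15 tested genes of oligodendrocytes and their precursors, the myelin genes Cldn11 (-1.24), Mobp (-1.14) and Mbp (-0.93) were lower in dorsal than in ventral, and 1, Cspg4 of precursors and pericytes, was higher (1.0). Mobp and Mbp are each given by the brightest of 5 tested probes. Of 12 neuronal genes, Stmn2 (-1.17) and Eno2 (-0.74) were lower in dorsal, and 10 did not pass. All of the genes named here were above background on the arrays of both regions. Cldn11, Mobp, Mbp and Stmn2 had the order of the called Slc1a2 probe, dorsal lowest and ventral highest, with no overlap between regions. Their means in dorsal, target and ventral were 11.8, 12.58 and 13.03 (Cldn11) and 11.75, 12.41 and 12.88 (Mobp). Those of Mbp were 11.91, 12.55 and 12.85, and those of Stmn2 9.86, 10.52 and 11.03. Eno2 had the same order of means with target and ventral overlapping, and Cspg4 the reverse order. The mean level of the 12 neuronal genes ran from 9.92 to 10.16 on dorsal arrays and from 10.08 to 10.32 on target arrays. On ventral arrays it ran from 10.32 to 10.45. For this mean the dorsal and target ranges overlapped, and in mouse 1 dorsal lay above target. For the 15 oligodendrocyte genes the ranges were 10.91 to 11.07, 10.99 to 11.11 and 11.03 to 11.18. The part of these cell types in the Slc1a2 difference was not tested.

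The mean of the astrocyte members themselves varied little between arrays after quantile normalization. Over the 27 genes with a probe above background on all 9 arrays, taking the brightest probe of each, it ran from 10.12 to 10.16 on dorsal arrays, from 10.04 to 10.09 on target arrays and from 10.07 to 10.14 on ventral arrays. All dorsal arrays thus lay slightly above all target arrays, and the ventral arrays overlapped both. The whole range over 9 arrays was thus narrower than for the neuronal genes. These means rest on 27 and 12 genes, and a mean over more genes can vary less for that reason alone. The brightest Slc1a2 probe, which stands for the gene in the astrocyte mean, is not the called one.

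**Figure D2:**
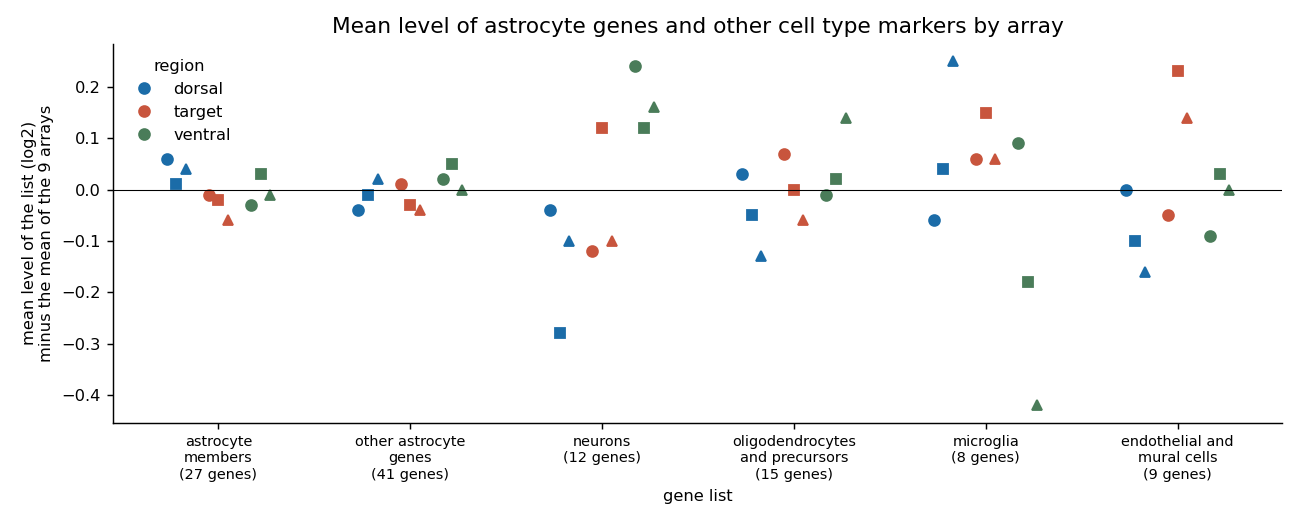
Mean log2 level of each gene list on each array minus that list's mean over the 9 arrays, for genes with a probe above background on all 9 arrays. Colours are regions, and circles, squares and triangles are mice 1, 2 and 3. The astrocyte members stay between -0.06 and 0.06, while the neuronal genes run from -0.28 in dorsal to 0.24 in ventral.

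Among the genes of identity and cytoskeleton, Gfap, which encodes the intermediate filament protein of astrocytes, did not pass between any regions. Its bright probe (1450139) read 7.90, 7.81 and 7.83 in dorsal, 7.88, 7.54 and 7.41 in target, and 7.48, 7.69 and 7.63 in ventral. The dorsal arrays lay above the ventral ones by a mean of 0.25 (SE 0.18, 95% interval -0.15 to 0.65, adjusted p = 0.460), and the target arrays overlapped both. A dim Gfap probe (1400603), above background on 1 array of each region, differed by -0.39 between dorsal and ventral (SE 0.42, adjusted p = 0.642), with the opposite sign.

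Aldh1l1, a folate enzyme used as a marker of most astrocytes, had the largest difference among the defining markers other than Slc1a2. It read 7.22, 7.41 and 7.49 in dorsal, 7.35, 7.37 and 7.34 in target, and 6.62, 7.0 and 6.80 in ventral. All ventral arrays lay below all others, at the opposite end to the Slc1a2 probe. The difference was 0.56 for dorsal minus ventral (SE 0.17, 95% interval 0.18 to 0.95, adjusted p = 0.0831) and 0.54 for target minus ventral (SE 0.17, 95% interval 0.16 to 0.93, adjusted p = 0.156), and neither passed. Dorsal minus ventral passed when only probes above background on all 9 arrays were tested (adjusted p = 0.0381). A second probe (2030332) was above background on no array.

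S100b, which encodes a calcium-binding protein, read 8.57, 8.30 and 8.81 in dorsal, 8.58, 8.54 and 8.56 in target, and 8.47, 8.94 and 8.54 in ventral. The regions overlapped, and its largest difference was -0.09 (95% interval -0.54 to 0.36). The 2 tested probes of Aldoc, the brain form of aldolase, differed by 0.10 and 0.45 between dorsal and ventral, and Fabp7, a fatty acid carrier, by 0.08. Vim, another intermediate filament gene, was above background on 3 dorsal, 3 target and 1 ventral array. Its dorsal minus ventral difference was 0.57 (SE 0.27), which did not pass.

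Ndrg2, a cytoplasmic protein abundant in astrocytes, had a probe (2630543) so bright that it ranked between 2 and 5 from the top on every array. It read 14.73, 14.58 and 14.58 in dorsal, 14.47, 14.73 and 14.20 in target, and 14.73, 14.73 and 14.20 in ventral. Quantile normalization gives the same rank the same value on each array, so the level of every probe follows its rank. At these top ranks the values lie in coarse steps, so this probe's level took only a few values. The dimmer probe (1450601) read 9.41, 9.06 and 9.06 in dorsal, 9.18, 9.05 and 9.61 in target, and 9.91, 9.46 and 9.94 in ventral. Its ventral arrays lay above the dorsal ones, with a dorsal minus ventral difference of -0.60 (SE 0.22, adjusted p = 0.151), against 0.08 for the bright probe.

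**Figure D3:**
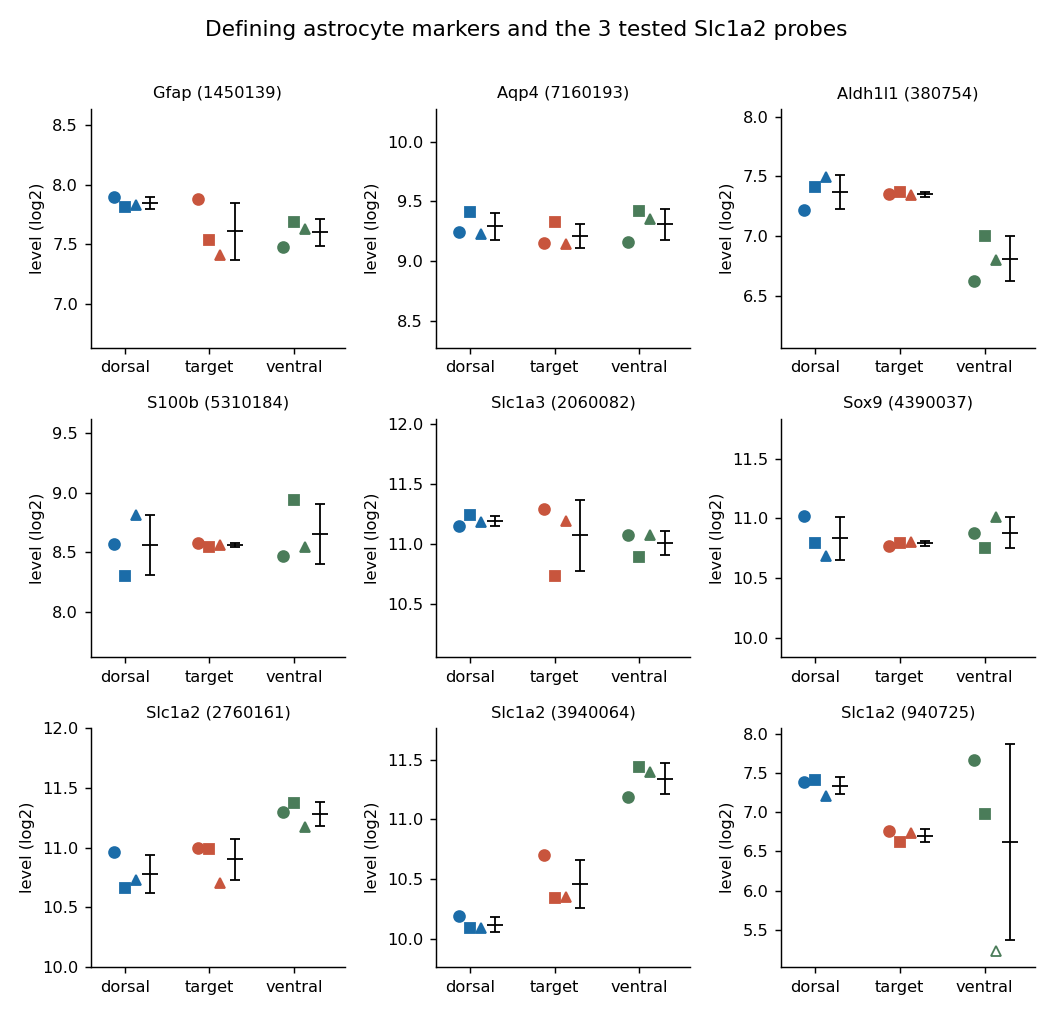
Level (log2) of the bright probes of 6 defining markers and of the 3 tested Slc1a2 probes in dorsal, target and ventral. Circles, squares and triangles are mice 1, 2 and 3, open symbols are arrays not above background, and bars give the mean ± SD (n = 3). Slc1a2 probe 3940064 steps up from dorsal to target to ventral, whereas Aqp4, S100b and Sox9 overlap in all regions.

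Of the transcription regulators, Sox9 specifies glia and is kept in adult astrocytes. Its bright probe (4390037) read 11.02, 10.79 and 10.68 in dorsal, 10.77, 10.79 and 10.80 in target, and 10.88, 10.75 and 11.01 in ventral. The regions overlapped, and all 3 intervals lay between -0.47 and 0.34. The dimmer Sox9 probe (5670451) read 7.30, 7.46 and 7.06 in dorsal, 7.51, 6.83 and 6.92 in target, and 7.55, 5.89 and 7.19 in ventral, where array 2 was not above background. Its largest difference, dorsal minus ventral, was 0.40 (SE 0.39, adjusted p = 0.609).

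Id4, an inhibitor of basic helix-loop-helix factors, was dim, above background on 8 of 9 arrays. It read 5.64, 5.73 and 6.81 in dorsal, 7.32, 6.37 and 7.27 in target, and 7.33, 6.34 and 5.85 in ventral. Target exceeded dorsal in every mouse, by 1.68, 0.65 and 0.47, but the groups overlapped and the mean difference of 0.93 (SE 0.45, adjusted p = 0.559) did not pass. Id3, of the same family, was above background on 1 ventral array only and was not tested.

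Beyond Slc1a2, no gene of glutamate handling passed. Slc1a3, the other astrocyte glutamate transporter, read 11.15, 11.24 and 11.18 in dorsal, 11.29, 10.73 and 11.19 in target, and 11.07, 10.89 and 11.07 in ventral. The dorsal arrays lay just above the ventral ones and the target arrays spanned both, with a dorsal minus ventral difference of 0.18 (95% interval -0.25 to 0.60, adjusted p = 0.634). Glul, the enzyme that turns glutamate into glutamine, differed by 0.43 between target and ventral (SE 0.29) and by 0.36 between dorsal and ventral (SE 0.29), and neither passed.

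Genes of water, ion and gap junction proteins gave 7 tested probes from 6 genes, of which 0 passed in any pair in limma's test, while 1 had an unadjusted p below 0.05, a Slc4a4 probe in dorsal against ventral, where 22.2% of all tested probes did. Aqp4, the water channel of the end feet, read 9.24, 9.41 and 9.23 in dorsal, 9.15, 9.33 and 9.14 in target, and 9.16, 9.42 and 9.35 in ventral. The regions overlapped, and its 3 intervals lay between -0.47 and 0.35. Mouse 2 was the highest in each region. The connexin genes Gja1 and Gjb6 had target minus dorsal differences of -0.24 and 0.26, of opposite sign in every mouse, and the target arrays of Gja1 lay below those of both neighbours. Mlc1, a membrane protein of the end feet, differed by at most 0.20 in size, and Atp13a4, a transporter of the P-type ATPases, by at most 0.39.

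Slc4a4, the sodium bicarbonate cotransporter, had probes that disagreed. The bright probe (3400554) read 9.02, 9.40 and 9.50 in dorsal, 9.24, 9.17 and 9.08 in target, and 9.34, 9.13 and 8.68 in ventral. The dim probe (4010736) read 7.10, 4.89 and 5.21 in dorsal, 5.45, 5.60 and 6.94 in target, and 8.46, 6.58 and 7.01 in ventral, and was above background on 1, 1 and 3 arrays. The bright probe overlapped in all regions and gave 0.26 for dorsal minus ventral (SE 0.22), whereas the dim probe gave -1.62 (SE 0.68, adjusted p = 0.198), the largest difference in size among the members. It had the same sign in all 3 mice, from -1.81 to -1.37, but varied more within a region than the difference could resolve. Its target minus ventral difference was -1.36 (SE 0.68, adjusted p = 0.378), against 0.12 for the bright probe. The 2 other Slc4a4 probes were above background on no array.

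Of the secreted proteins, Apoe, the main lipid carrier made by astrocytes, was highest on the ventral arrays. It read 9.59, 9.63 and 9.68 in dorsal, 9.78, 9.52 and 9.63 in target, and 9.98, 10.18 and 10.01 in ventral. No ventral array overlapped another region, as was true of 26.7% of all tested probes in dorsal against ventral and 21.1% in target against ventral. The difference was -0.42 for dorsal minus ventral (95% interval -0.78 to -0.06, adjusted p = 0.158) and -0.41 for target minus ventral (95% interval -0.77 to -0.05, adjusted p = 0.252), and neither passed. Its values are given in full because of this separation, after they were seen.

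Sparcl1, which promotes synapses, had its dorsal arrays above the others, with a dorsal minus ventral difference of 0.29 (SE 0.16, adjusted p = 0.326). Cst3, a protease inhibitor, differed by at most 0.13. Pla2g7, an enzyme that breaks down platelet-activating factor, read 8.20, 7.53 and 7.73 in dorsal, 7.47, 7.13 and 7.14 in target, and 7.59, 7.0 and 7.72 in ventral. All target arrays lay below all dorsal arrays, with a difference of -0.58 (SE 0.25, adjusted p = 0.517), which did not pass.

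Agt, the precursor of angiotensin and a known marker of astrocytes in the hindbrain and midbrain, was above background on 2 target arrays and on no dorsal or ventral array, and so missed the filter. It read 4.77, 4.86 and 4.61 in dorsal, 6.33, 5.50 and 5.99 in target, and 4.87, 5.39 and 4.91 in ventral. All 3 target arrays lay above the others, but values this close to background were not tested.

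Among cell surface proteins, F3, the tissue factor that starts blood clotting, had the largest positive difference of the members. It read 7.64, 7.40 and 7.07 in dorsal, 6.51, 5.93 and 6.06 in target, and 5.36, 5.51 and 7.07 in ventral, where arrays 1 and 2 were not above background. All dorsal arrays lay above all target arrays, and ventral array 3 stood at the dorsal level, apart from the other ventral arrays. Target minus dorsal was -1.20 (SE 0.42, adjusted p = 0.412) and dorsal minus ventral 1.38 (SE 0.42, 95% interval 0.44 to 2.33, adjusted p = 0.0814), and neither passed. Without ventral array 3 the dorsal minus ventral test passed (adjusted p = 0.00653), but neither of the 2 ventral arrays then left was above background, so no size is given for that difference.

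Gpc5, a heparan sulphate proteoglycan, had 3 tested probes that pointed different ways between dorsal and ventral. The brightest (3800717) read 10.26, 10.47 and 10.15 in dorsal, 10.36, 10.10 and 9.93 in target, and 9.86, 9.69 and 9.76 in ventral. The second (5810156) read 7.74, 7.91 and 7.68 in dorsal, 7.54, 8.08 and 7.89 in target, and 8.12, 8.01 and 7.87 in ventral. The third (7210477) read 6.68, 5.63 and 6.73 in dorsal, 6.83, 6.64 and 5.65 in target, and 8.19, 6.88 and 6.78 in ventral. Ventral was lowest on the brightest probe and highest on the third, with no overlap with dorsal on either. Dorsal minus ventral was 0.52 (SE 0.18, adjusted p = 0.123), -0.22 (SE 0.19, adjusted p = 0.556) and -0.94 (SE 0.47, adjusted p = 0.289) on the 3 probes, and none passed. The brightest probe passed without background correction (0.46, adjusted p = 0.0426).

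Mertk, a receptor for the uptake of dying cells and synapses, had a brighter probe (3440551) that read 6.89, 7.28 and 7.07 in dorsal, 6.60, 7.35 and 7.07 in target, and 7.32, 7.60 and 7.38 in ventral. Its dimmer probe (4920193) read 4.94, 5.98 and 6.17 in dorsal, 6.71, 5.19 and 6.52 in target, and 5.38, 7.24 and 6.97 in ventral, above background on 2 arrays of each region. Ventral exceeded dorsal in every mouse on both probes, by a mean of 0.35 and 0.83 in size, but neither difference passed (adjusted p = 0.406 and 0.451). The 2 tested probes of Ednrb, an endothelin receptor, differed by -0.28 and -0.11 between dorsal and ventral. Fgfr3, a growth factor receptor of astrocyte precursors and adult astrocytes, was above background on 2 ventral arrays with 1 of its 2 probes, and was not tested.

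**Figure D4:**
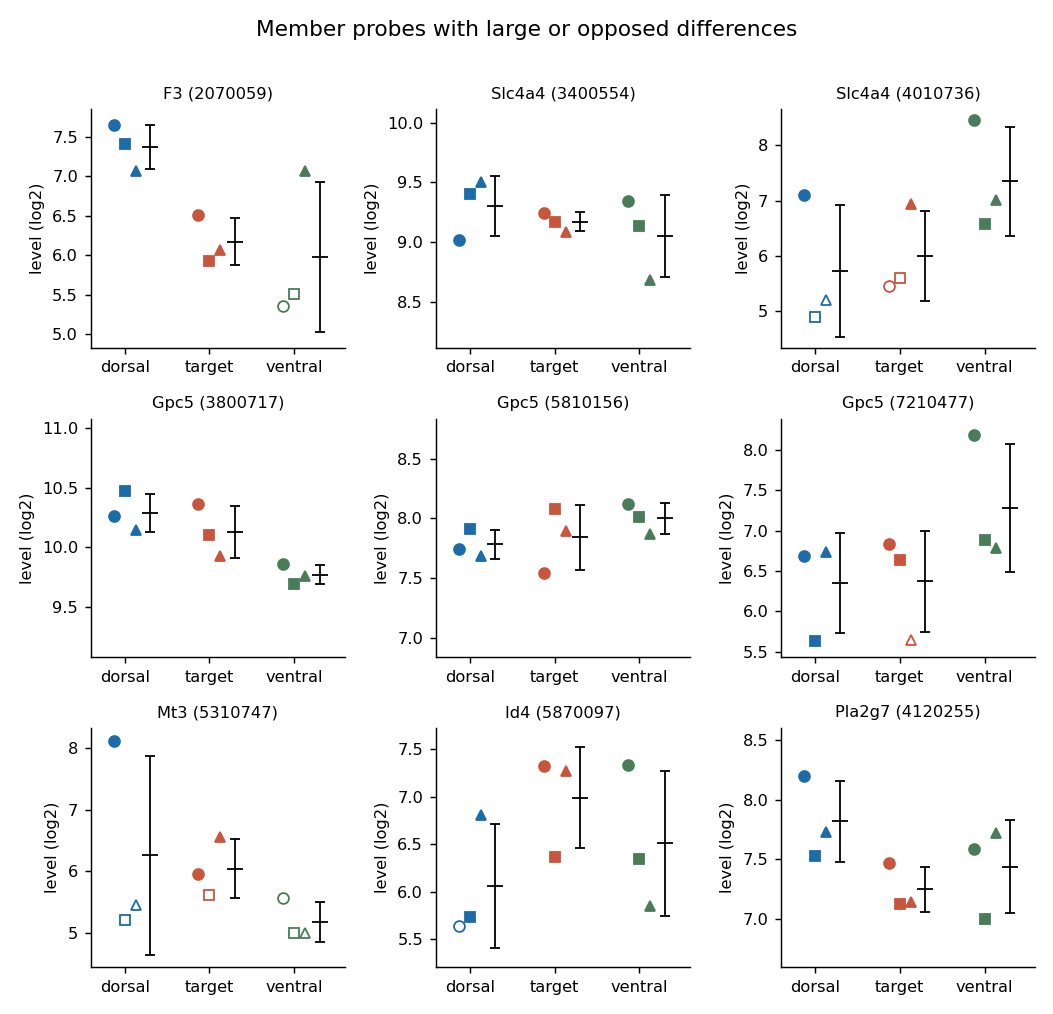
Level (log2) in each array for member probes with the largest differences or with probes that disagree: F3, Slc4a4 (2 probes), Gpc5 (3 probes), Mt3, Id4 and Pla2g7. Circles, squares and triangles are mice 1, 2 and 3, open symbols are arrays not above background, and bars give the mean ± SD (n = 3). Ventral array 3 of F3 stands at 7.07 beside 5.36 and 5.51, and dorsal array 1 of Mt3 at 8.12 beside 5.21 and 5.46.

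Of the metabolic enzymes, Dio2, which activates thyroid hormone in astrocytes, differed by at most 0.12 in size between regions. Plpp3, listed on the array under the older name PPAP2B, removes phosphate from lysophosphatidic acid. Its dorsal arrays spanned 8.06 to 8.12 and its target arrays 8.23 to 8.44 with no overlap, and the difference of 0.23 (SE 0.24) did not pass. Cbs, an enzyme of homocysteine metabolism, was above background on 1 dorsal array with 1 of its 2 probes and was not tested.

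Metallothioneins are small proteins that bind zinc and copper. Mt1 and Mt2 are induced by metals through short metal response elements in their promoters, while Mt3 is a brain form that is known to respond little to metals. Their promoters are shown as the set of neighbouring genes within the list, each from 250 bases before to 50 bases after the start, on the + strand of GRCm38.p6, from RefSeq. The windows lie at chr8:94178839-94179138 (Mt1), chr8:94172368-94172667 (Mt2) and chr8:94152357-94152656 (Mt3). Capitals mark matches to the element's core, TGCACNC or TGCGCNC, on either strand.
Mt1: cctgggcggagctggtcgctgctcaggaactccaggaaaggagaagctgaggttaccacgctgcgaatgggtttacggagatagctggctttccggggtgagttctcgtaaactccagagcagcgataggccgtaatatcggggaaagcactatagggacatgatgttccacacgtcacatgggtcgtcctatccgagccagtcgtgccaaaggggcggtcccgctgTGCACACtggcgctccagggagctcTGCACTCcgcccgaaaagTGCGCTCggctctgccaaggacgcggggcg
Mt2: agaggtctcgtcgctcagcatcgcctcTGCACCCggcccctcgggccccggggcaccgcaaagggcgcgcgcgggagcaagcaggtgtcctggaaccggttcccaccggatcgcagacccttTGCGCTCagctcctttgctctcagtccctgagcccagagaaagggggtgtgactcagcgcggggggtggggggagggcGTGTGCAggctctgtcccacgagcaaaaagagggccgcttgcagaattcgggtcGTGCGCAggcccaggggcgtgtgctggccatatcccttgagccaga
Mt3: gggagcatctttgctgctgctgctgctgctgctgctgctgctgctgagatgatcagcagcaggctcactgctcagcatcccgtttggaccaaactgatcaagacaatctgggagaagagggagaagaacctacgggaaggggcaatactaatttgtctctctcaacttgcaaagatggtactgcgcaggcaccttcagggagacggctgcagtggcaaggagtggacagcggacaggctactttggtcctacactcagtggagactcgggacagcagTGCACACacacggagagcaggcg
The Mt1 window held 3 matches, the Mt2 window 4, of which 2 were on the opposite strand, and the Mt3 window 1, and no matches overlapped. At least 1 match was found in 25.7% of all 32851 promoter windows of this length and in 10 of the 40 windows of member genes (25%). A window with 3 or more matches was found for 1.97% and with 4 or more for 0.517% of all windows. A match is a run of letters and not a bound site.

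Mt1 was steady, at 11.53, 11.53 and 11.26 in dorsal, 11.33, 11.29 and 11.31 in target, and 11.35, 11.46 and 11.32 in ventral. Mt2 read 8.78, 8.42 and 8.66 in dorsal, 8.69, 8.44 and 8.63 in target, and 8.37, 8.72 and 8.57 in ventral. Both genes overlapped in all regions, with differences of at most 0.13 in size. Mt3 was above background on 3 of 9 arrays, at 8.12, 5.21 and 5.46 in dorsal, 5.96, 5.62 and 6.56 in target, and 5.56, 5.0 and 5.0 in ventral. Dorsal array 1 stood apart from the other dorsal arrays, and no ventral array was above background. Neither dorsal (adjusted p = 0.392) nor target (adjusted p = 0.590) passed against ventral, and no fold is given because dorsal arrays 2 and 3 and target array 2 were not above background either. Whether these probes tell the 3 related genes apart was not examined here.

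Probes of 1 gene often disagreed, among the members as on the whole array. Of the 9 genes with more than 1 tested probe, Gfap, Gpc5, Ndrg2, Slc1a2 and Slc4a4 had probes with opposite signs that lay over 0.5 apart in dorsal against ventral. Gpc5, Slc1a2 and Slc4a4 did so in target against ventral, and Mertk and Slc1a2 in target against dorsal. These 5, 3 and 2 of 9 genes stand beside 44.9%, 42.4% and 36.2% of the 3770 array names with more than 1 tested probe. In each of these genes except Ndrg2, a probe that was not above background on all 9 arrays was among those opposed, and in Gpc5 the 2 brighter probes were opposed as well.

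The pathway around the members was examined through 58 other known astrocyte genes, of which 50 were tested through their brightest probe. In target against dorsal 0 passed in limma's test, where 0.0586% of all tested probes did, and 7 of the 50 had an unadjusted p below 0.05, against 9.60% of all probes. The largest difference was 1.02 for Atp1b2 (SE 0.26, adjusted p = 0.243). In target against ventral 1 was higher in target, Bcan, and 1 was lower, Atp1b2, where 1.78% of all probes passed. In dorsal against ventral 4 were higher in dorsal, Bcan, Acsbg1, Kcnj10 and Kcnj16, and 3 were lower, Atp1b2, Rgma and Ncan, where 7.98% of all probes passed. With arrays centred on their medians, 10 were higher and 1 lower in dorsal, and without background correction 6 were higher and 5 lower. At an unadjusted p below 0.05 the main fit had 9 of the 50 in target against ventral, against 16% of all probes. In dorsal against ventral it had 19 of the 50, of which 9 were higher in dorsal, a larger share than the 22.2% of all probes. The called share of the 50 genes in this pair was also above the 7.98% of all probes. These genes are given by their brightest probe and were not matched for level to all probes. The median difference of the 50 genes was -0.10, -0.07 and 0.10 in the 3 pairs. Here too the median of the list stayed near 0, while its genes moved both ways.

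Atp1b2, a sodium pump subunit that also serves in cell adhesion, showed the same order as the called Slc1a2 probe. It read 8.14, 8.34 and 8.64 in dorsal, 9.80, 8.95 and 9.43 in target, and 11.84, 11.40 and 11.90 in ventral. The regions did not overlap, and the difference was -3.34 for dorsal minus ventral (SE 0.26, adjusted p = 2.97e-04) and -2.32 for target minus ventral (SE 0.26, adjusted p = 0.00425). Ncan, a proteoglycan of the extracellular matrix made by neurons and astrocytes, was also lower in dorsal than in ventral (-1.07, SE 0.19, adjusted p = 0.00896). Rgma, a guidance molecule, was lower in dorsal as well (-1.52, SE 0.35, adjusted p = 0.0314).

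Bcan, the proteoglycan brevican, went the other way. Its brightest probe read 10.48, 10.71 and 10.63 in dorsal, 10.27, 10.40 and 10.24 in target, and 8.58, 8.47 and 8.38 in ventral. Target and dorsal lay far above ventral, by 1.82 (SE 0.16, adjusted p = 0.00122) and 2.13 (SE 0.16, adjusted p = 2.79e-04). Its other tested probes differed by 1.23 (adjusted p = 0.094) and -0.44 (adjusted p = 0.709) between target and ventral, and by 0.72 (adjusted p = 0.221) and -0.45 (adjusted p = 0.627) between dorsal and ventral, so that 1 of the 3 probes had the opposite sign. Kcnj10 and Kcnj16, subunits of the potassium channel through which astrocytes buffer potassium, were both higher in dorsal than in ventral, by 0.85 (SE 0.17, adjusted p = 0.0168) and 0.66 (SE 0.15, adjusted p = 0.0299). In the blocked fit Kcnj16 had an adjusted p of 0.0558. Acsbg1, a fatty acid activating enzyme, was higher by 1.05 (SE 0.21, adjusted p = 0.0173), while its second probe was not called.

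Several of these calls rested on the full set of arrays. Kcnj16 lost its call without any 1 of 7 arrays (highest adjusted p 0.102) and Rgma without ventral array 1, 2 or 3 or target array 1 (highest 0.0874). Kcnj10 lost it without dorsal array 2 or 3 or ventral array 1 (highest 0.0565), and Acsbg1 without dorsal array 1 (0.0548) or 2 (0.0600). Median centring ended the dorsal minus ventral calls of Ncan (-0.67, adjusted p = 0.0895) and Rgma (-1.15, adjusted p = 0.0881). Rgma was also lost with no filter on dim probes (adjusted p = 0.0562), and Acsbg1 with the mean over its probes (0.63, adjusted p = 0.157). Ncan kept its call without any 1 array, and Atp1b2 and Bcan kept their calls in both pairs under all alternatives run.

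**Figure D5:**
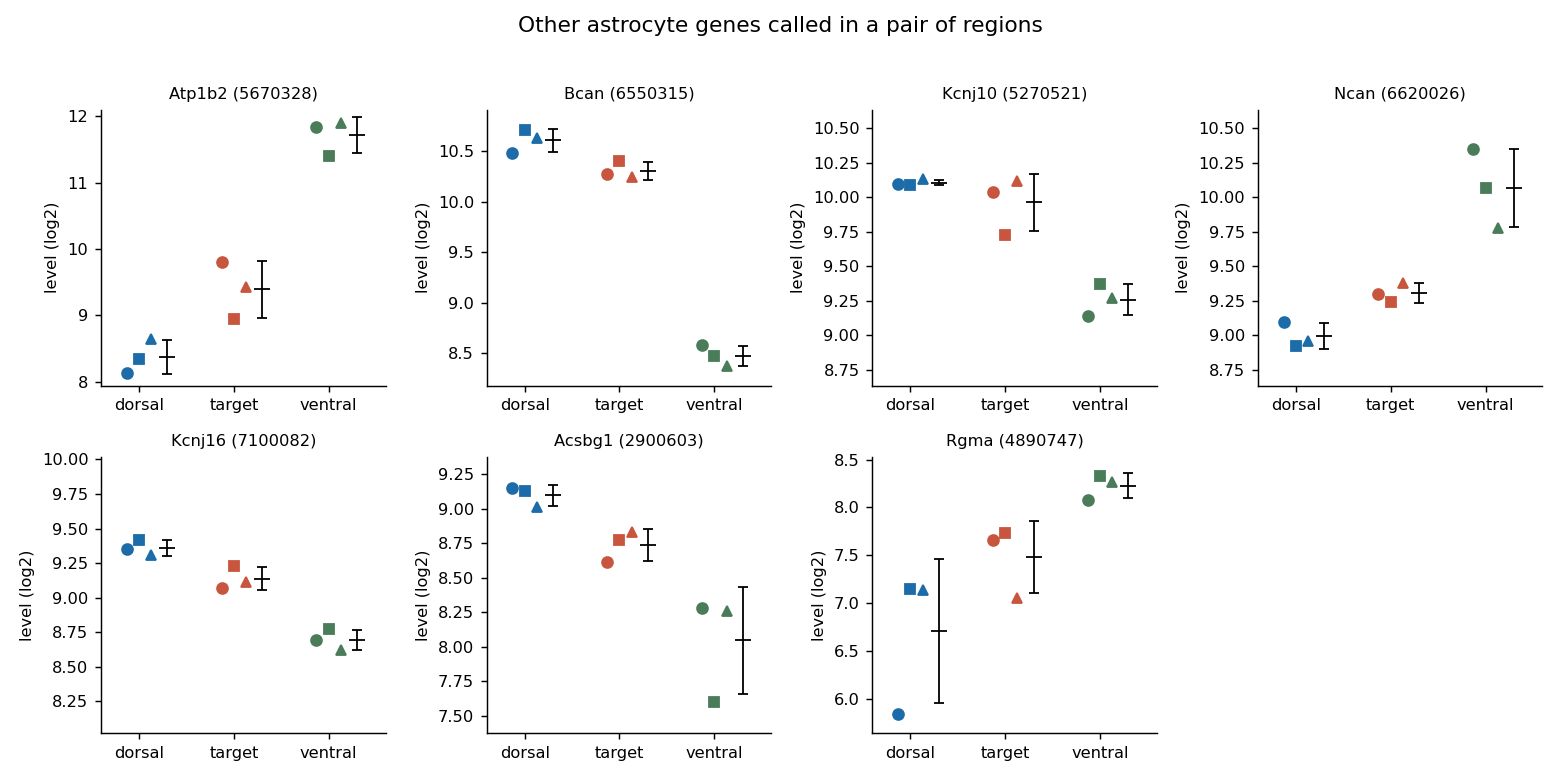
Level (log2) in each array of the 7 other astrocyte genes called in a pair of regions, in dorsal, target and ventral. Circles, squares and triangles are mice 1, 2 and 3, and bars give the mean ± SD (n = 3). Atp1b2, Ncan and Rgma have their highest mean in ventral, and Bcan, Kcnj10, Kcnj16 and Acsbg1 in dorsal.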

How the data were processed

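Total RNA of 9 brainstem samples (3 regions, 3 mice) was measured on Illumina arrays. Per the file headers, linear intensities were exported by the authors from GenomeStudio 1.6.0, both unnormalized and quantile-normalized. The same deposited export holds a detection score, used here as 1 minus the detection p, and per the file headers another measure, the number of beads per probe (a median of 43 to 45). A second deposited table of intensities equalled the unnormalized one, and the series matrix equalled the quantile-normalized one (column medians 182.3 to 182.5, linear, not centred).

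The log2 values were made here from the unnormalized intensities deposited by the authors (array medians 146.1 to 230.9). In R 4.3.3 with limma 3.58.1, neqc inferred negative controls from the detection p, corrected the background, added an offset of 16, quantile-normalized and took log2. Probes with a detection p below 0.05 on at least 3 of 9 arrays entered 1 limma fit (lmFit, eBayes) of the 9 arrays with region as the only term, and Benjamini-Hochberg adjustment ran over 20461 probes with a limit of 0.05. The fit was tested on simulated data.

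Members were matched by the array's gene name, of which 34 are RefSeq symbols and 1 a synonym. Means over lists and the other lists use the brightest probe of a gene. Where no array of a region was above background, no fold is given. Named with values in each array are the defining markers, every called member probe, the 5 largest differences per pair of regions, and genes whose probes had opposite signs over 0.5 apart. From the other astrocyte lists come up to 4 called genes per pair and direction, or the largest difference where none passed, and from markers of other cells the called genes. The members and all lists were chosen with earlier results of these data known.

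The column headers of a deposited table give same-numbered arrays the same mouse, so the numbers pair the samples. Deviations of same-numbered arrays from their region means correlated between -0.10 and 0.15 (median 0.03), against -0.16 to 0.22 (median -0.01) for other pairs. The fit without the mouse was kept as the main result, and the mouse as a block was an alternative. Other alternatives were no background correction, the authors' quantile table, median centring, other filters and detection limits, means over the probes of a gene, and each array left out. The value of a further oligodendrocyte marker is not reported here.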

Additional observations from a re-analysis of the deposited data

How the results depend on the processing

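The members' median differences stayed near 0 except under median centring of the arrays, which moved the median of all tested probes to -0.35 (target minus dorsal), 0.02 (target minus ventral) and 0.36 (dorsal minus ventral). The members' medians were then -0.45 and 0.45 for target minus dorsal and dorsal minus ventral, or -0.11 and 0.09 relative to all probes. Under centring, 0 members were called in target against ventral and 3 in dorsal against ventral (Aldh1l1, F3 and Gpc5, higher in dorsal), while Slc1a2 probe 3940064 had -0.81 (adjusted p = 0.0513) and -0.90 against target (0.134), and its uncalled target minus dorsal difference turned to -0.09.

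In target against ventral, the 1 member call was also lost with the mouse as a block (0 called), with means over the probes of a gene (0 called) and without any 1 array (0 called each time). In dorsal against ventral, the members called were 3 without background correction and 3 in the authors' quantile table (2 Slc1a2 probes and Gpc5), 2 among probes above background on all 9 arrays, 0 with gene means, and 1 to 3 without single arrays.

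Of all probes in target against dorsal, 88 passed without background correction, 88 in the authors' table, 42 with the filter on all 9 arrays, 20 with no filter, 32 at a detection limit of 0.01, 3 with the replicate block and 1 to 3 without single arrays, against 12. In target against ventral, 833 passed without background correction (431 higher, 402 lower in target), 832 in the authors' table (431 higher, 401 lower), 178 with centring, 154 with the block and 64 to 302 without single arrays, against 365 (239 higher, 126 lower). In dorsal against ventral, 2563 passed with centring (2159 higher, 404 lower in dorsal) and 939 to 1452 without single arrays, against 1632 (830 higher, 802 lower). The cause of these shifts was not tested.

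With the mouse as a block, Serpina3n passed in dorsal against ventral (adjusted p = 0.0260), and beside the lost calls of Slc1a2 in target against ventral and of Kcnj16 it changed the call of no other named probe. Over all 33 named probes, 1529 of 1581 comparisons kept their direction where called and their side of the limit, 17 newly passed and 35 no longer passed. The files used give no slides, so a slide block was not run. With 3 mice per region, the median interval of a member's difference reached 0.44 to either side, which leaves smaller differences unresolved.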

Other observations

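Genes that astrocytes raise after injury or inflammation gave no call between the regions. Of 31 such genes, 16 were tested and 0 passed in limma's test in any pair. At an unadjusted p below 0.05 there were 1 in target against dorsal, 2 in target against ventral and 3 in dorsal against ventral. Of all probes, 9.60%, 16% and 22.2% had such a p in these pairs. Serpina3n, a protease inhibitor, read 5.88, 5.10 and 5.32 in dorsal, 5.91, 5.86 and 4.79 in target, and 7.49, 6.75 and 6.23 in ventral, above background on 1, 2 and 3 arrays. All ventral arrays lay above all others, with a dorsal minus ventral difference of -1.39 (SE 0.40, adjusted p = 0.0688) and a target minus ventral difference of -1.30 (SE 0.40, adjusted p = 0.147). Its dorsal minus ventral difference passed with the mouse as a block (adjusted p = 0.0260) and without target array 3 (adjusted p = 0.0465). Tm4sf1, a membrane protein, had the largest target minus dorsal difference of these genes, at 0.77 (SE 0.45, adjusted p = 0.630).

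Among markers of cells that border the tissue or the cerebellum, 1 of 10 ependymal, choroid plexus and meningeal genes passed, Slc13a4, higher in target than in ventral (2.28, SE 0.34, adjusted p = 0.0168), where 1 of 3 ventral arrays was above background. Of 6 genes of Bergmann glia and cerebellar neurons, Septin4 was higher in dorsal than in ventral (1.05, SE 0.19, adjusted p = 0.00967), while Pcp2, of Purkinje cells, had the larger difference in the other direction and did not pass (-1.67, SE 0.44, adjusted p = 0.0521). Pcp2 is named after its values were seen. Of 4 red cell genes, Hbb-b1 was higher in dorsal than in ventral (0.82, SE 0.16, adjusted p = 0.0135). This is the brightest of its 11 tested probes, and the others are not given here. Of 12 endothelial and mural genes, Cspg4, given above, was the only call. Of all tested probes, 1.78% passed in target against ventral and 7.98% in dorsal against ventral. Of 8 microglial genes 0 passed in limma's test in any pair. At an unadjusted p below 0.05 there were 0 in target against dorsal, 3 in target against ventral and 3 in dorsal against ventral. All of these were lower in ventral. Of all probes, 9.60%, 16% and 22.2% had such a p in the 3 pairs.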
